A study of Mus musculus with 12 samples.

Results

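Bradykinin (BK) and HOE-140 (icatibant), an agonist and an antagonist of the B2 kinin receptor, were compared in differentiated neurospheres carrying APPswe and PS1dE9 mutations. The comparison used 8 of the 12 arrays of the study, 4 with BK-treated (BK_APP) and 4 with HOE-140-treated (HOE_APP) neurospheres, each hybridized together with untreated neurospheres (APP_WT). The log2 ratio of treated over untreated was formed on each array, and the value of HOE_APP was subtracted from that of BK_APP with the same replicate number, which gave 4 paired differences for each of 29078 expressed probes out of 55681. A positive difference means a higher transcript level with BK than with HOE-140.

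Progenitor cells from the telencephalon of C57BL/6 mouse embryos (day 13) form neurospheres, clusters that float in culture, and these were left to attach and differentiate for 7 days without growth factors. BK_APP, HOE_APP and APP_WT neurospheres all carried both transgenes, APPswe, in which part of the mouse sequence of APP is replaced by the human one with the Swedish mutation, and PS1dE9, a human presenilin 1 that lacks an exon. The transgenes are driven in neurons and serve as a model of familial Alzheimer's disease. BK_APP neurospheres received 1 µM BK and HOE_APP neurospheres 1 µM HOE-140, each on days 0, 3 and 6, and APP_WT neurospheres no drug. RNA was taken on day 7, so that dose and time were matched and 1 pair of compounds was compared. A group with HOE-140 given together with BK is not among these arrays.

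The kinin system starts from kininogens, plasma and tissue proteins from which kallikreins release BK. BK acts through the B2 receptor, a receptor coupled to Gq that activates phospholipase C and releases calcium, while kinins that have lost their last arginine act through the B1 receptor, and peptidases such as angiotensin-converting enzyme and neprilysin degrade BK. HOE-140 is itself a peptide of the BK type in which several residues are replaced by non-natural amino acids, and it occupies the B2 receptor without activating it. In the brain BK is known as a mediator of inflammation that also acts on microglia.

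Limits of the arrays come first. The treated sample was labeled with Cy5 on replicates 1 and 2 and with Cy3 on replicates 3 and 4. Across probes, ratios to untreated correlated positively between arrays of 1 dye layout (r = 0.25 to 0.28 in BK_APP, 0.34 to 0.43 in HOE_APP). Between swapped layouts r was negative (−0.32 to −0.11 in BK_APP, −0.32 to −0.19 in HOE_APP). The side of 0 on a single array is therefore not an effect of treatment alone. On the HOE_APP arrays both channels are labeled with HOE-140, and the direction used rests on the titles, the first channel's label, the dye swap and an assumed likeness to the BK_APP arrays, so every direction between BK_APP and HOE_APP is likely only, and the values with the sign of HOE_APP turned are given beside the main lists. Same-numbered arrays share the dye of the treated sample, so a dye effect of a probe cancels in their difference. It does not cancel within a pair with the sign turned, so counts of calls under both signs are not like for like. All 8 arrays lay on 1 slide, with BK_APP in one column of positions and HOE_APP in the other, so treatment and slide column cannot be told apart. The share of spots well above background ran from 51.2% to 56.5% on the BK_APP arrays and from 56.9% to 60.3% on the HOE_APP arrays, and the part of this gap in the results was not tested. The defining markers of neurons (Tubb3, Dcx, Map2), astrocytes (Gfap, Aqp4, Slc1a3), oligodendrocytes (Olig2, Sox10, Mbp) and microglia (Aif1, Csf1r, Cx3cr1) were well above background in both channels of all 8 arrays, as were Pecam1, Kdr and Pdgfrb, whereas the endothelial Cdh5 and the pericyte marker Rgs5 were not expressed by the rule used here. The neurospheres thus hold transcripts of several cell types, and in such bulk samples fewer cells of a type and less RNA per cell cannot be told apart.

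In the direction used here, immune genes led the difference between BK_APP and HOE_APP. The difference was above 0 for 40 of 41 interferon-induced genes, 27 of 28 inflammatory and NF-kB genes, 14 of 14 genes of MHC class I antigen presentation and 30 of 31 microglial genes, but below 0 for 44 of 48 neuronal genes, and the genes of the kinin system itself had a median of −0.006. None of them passed the adjusted test. The lists were chosen with earlier results of these data known, so these counts are a description. With the sign of HOE_APP turned, 4 of 41 interferon-induced and 21 of 28 inflammatory genes were above 0. The same setting gave 6 of 14 MHC class I, 16 of 31 microglial and 14 of 48 neuronal genes above 0. The median of cell cycle genes of the G2 and M phases was then 0.24, higher than those of the immune lists. Most differences were small, with 90% of the 14274 expressed genes that have a name, each represented by its brightest probe, between −0.14 and 0.16 on the log2 scale. No probe passed an adjusted p of 0.05 (0 of 29078, limma paired test with Benjamini-Hochberg adjustment), the smallest adjusted p was 0.0596, and 2302 probes (7.92%) had an unadjusted p below 0.05. SAM and rank products, both at an unadjusted p of 0.05 or lower, shared 1178 of 28737 probes, 723 of them higher in BK_APP. The adjusted count depended on the variance model and the scaling, since 54 probes passed (53 higher in BK_APP) where the prior variance followed the intensity, an alternative chosen after seeing the data, and 46 (44 higher) with median centring in place of loess. Of the 2302 probes 55.1% were higher in BK_APP, a share that was 31.0% with median centring, 37.6% in the treated channels alone and 40.8% with the sign of HOE_APP turned. The median over all genes was −0.004 here, −0.04 with median centring, −0.03 in the treated channels and 0.005 with the sign turned, and its part in these shares was not tested. Of the named genes, 1243 (8.71%) had an unadjusted p below 0.05, 728 higher in BK_APP (5.1%) and 515 lower (3.61%). A difference above 0.5 in size was found for 22 genes, 16 of them positive and 6 negative. The design is small, since an exact test on 4 pairs cannot give a two-sided p below 0.125, and although the methods describe the replicates as biologically independent, it is not given whether they came from different litters.

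**Figure D1:**
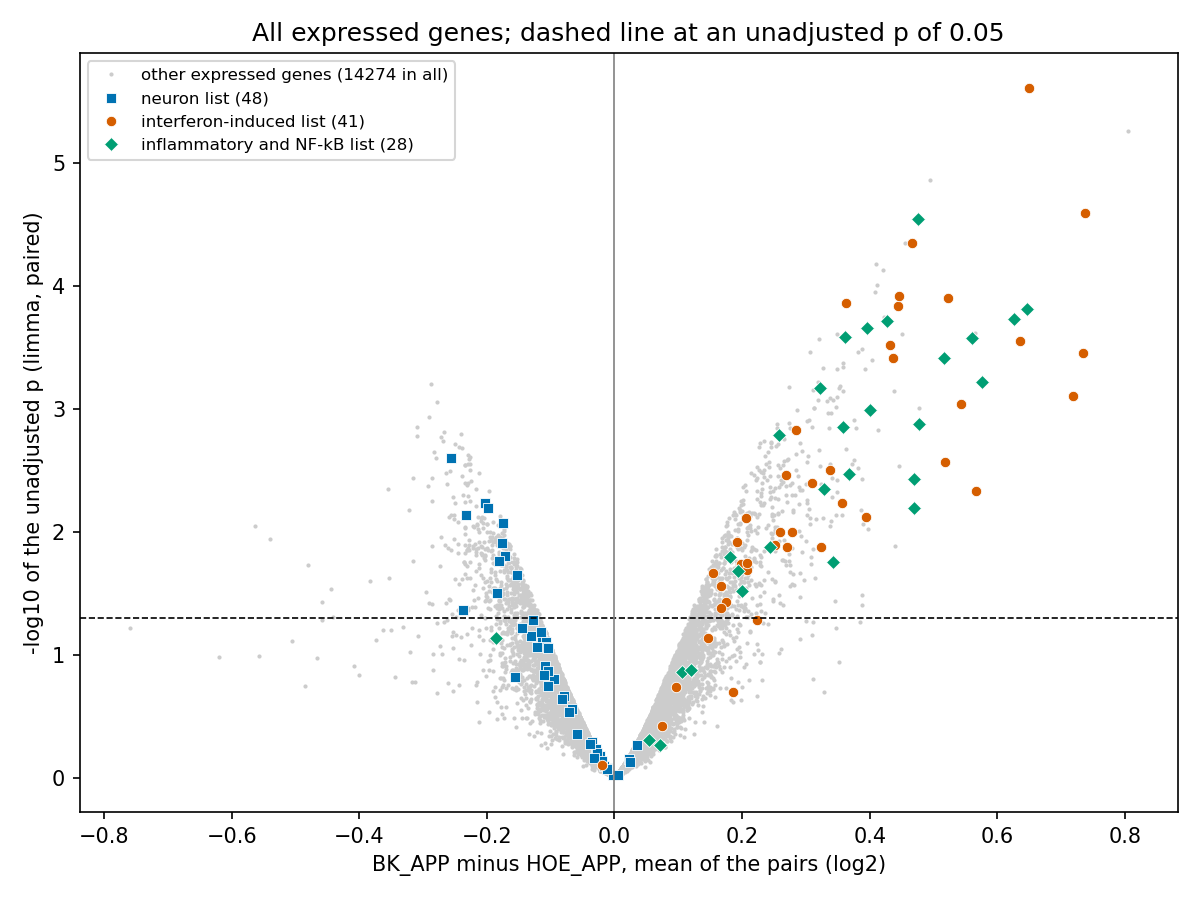
Mean paired difference of each expressed gene (x axis, log2, BK_APP minus HOE_APP) against −log10 of its unadjusted p from the paired limma test (y axis). In the direction used here, the 41 interferon-induced genes and the 28 inflammatory and NF-kB genes lie on the right except for 1 member each, whereas 44 of the 48 neuronal genes lie left of 0.

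Among genes above 0 in all 4 pairs with an unadjusted p below 0.05, the largest differences belonged to C3, Ifit1, Rtp4, Oasl2, Gbp5, Ccl5, Isg15, Bcl3, Cxcl10 and Ifit3b, in this order, with means from 0.80 to 0.57. With the sign of HOE_APP turned, all 10 fell below 0, from −0.002 for Cxcl10 to −0.46 for Ccl5, with C3 at −0.32. For C3, the central component of complement, the log2 ratio to APP_WT was 0.33, 0.11, 0.65 and −0.12 on the 4 BK_APP arrays and −0.75, −0.55, −0.14 and −0.80 on the 4 HOE_APP arrays. Every BK_APP value was higher than every HOE_APP value, and the HOE_APP values were all below the untreated level. The paired differences of 1.08, 0.66, 0.79 and 0.68 averaged 0.80 (SE 0.08, 95% interval 0.63 to 0.98, 1.75-fold, adjusted p = 0.0596), and a further C3 probe gave 0.72. For Gbp5, a guanylate-binding protein of cell-autonomous immunity, BK_APP lay at 0.28, 0.24, 0.65 and 0.00 and HOE_APP at −0.36, −0.30, −0.04 and −0.73. These values did not overlap, and the paired differences (0.64, 0.54, 0.69 and 0.73) were the most even of the 10 genes, with a mean of 0.65 (SE 0.06, interval 0.52 to 0.78, adjusted p = 0.0596). The only other gene with an adjusted p below 0.1 was Cebpd, a transcription factor of the acute phase response, which was chosen after its values were seen and had a difference of 0.49 (SE 0.05, adjusted p = 0.0994).

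**Figure D2:**
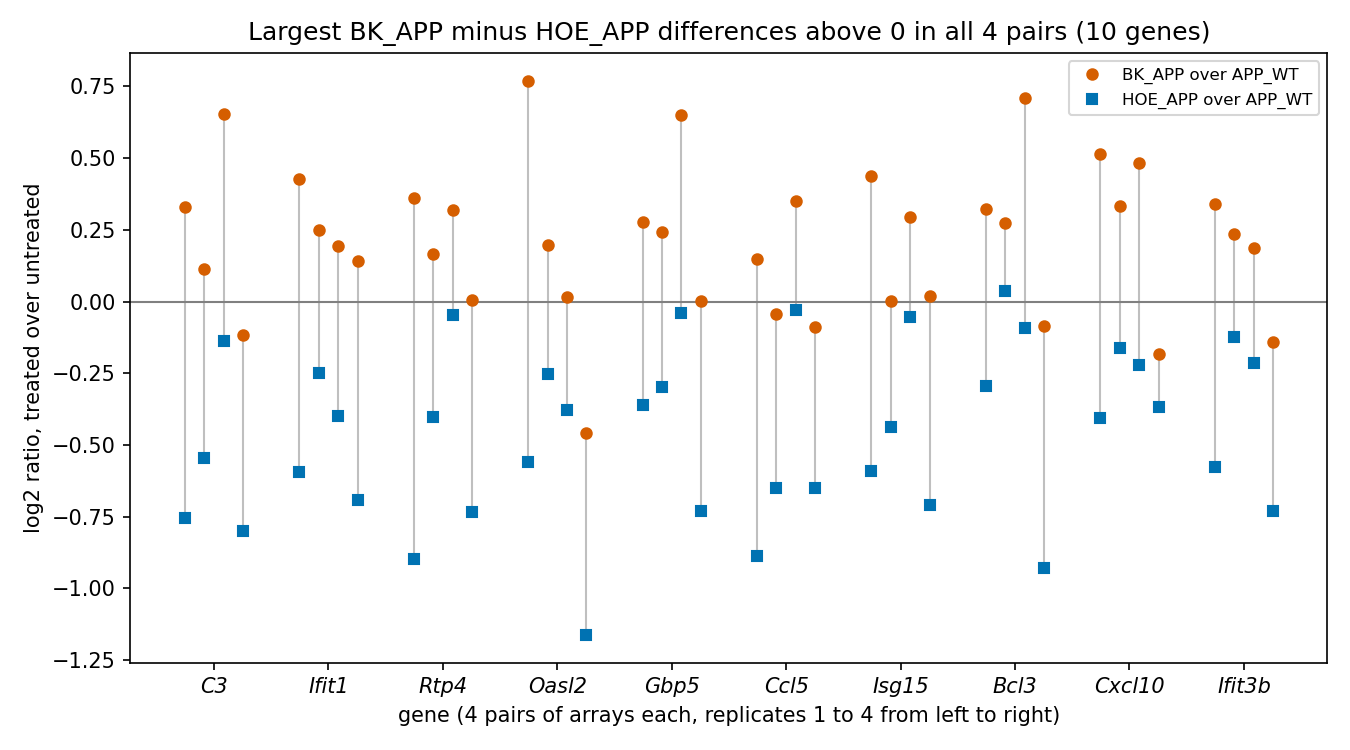
Log2 ratio of treated over untreated neurospheres (y axis) on each of the 4 BK_APP arrays (circles) and 4 HOE_APP arrays (squares) for the 10 genes with the largest difference among those above 0 in all 4 pairs, with a line joining the arrays of one replicate number. All circles lie above the squares they are paired with, and most HOE_APP values lie below 0, down to −1.16 for Oasl2 on replicate 4.

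Interferon-induced genes encode proteins that block viral replication or present antigen when cells sense interferon. Of the 46 genes listed, 41 were expressed. The difference was above 0 in 40 of the 41, where 47.8% of all genes were above 0, and 29 were above 0 in all 4 pairs, where 9.37% of all genes were. An unadjusted p below 0.05 was found for 35 members, all higher in BK_APP, beside 5.1% of all genes, and 27 or 23 without the pairing (8 or 12 arrays). The median over the list was 0.28 against −0.004 over all genes, with pair medians of 0.48, 0.30, 0.24 and 0.28. The largest value came from the arrays of replicate 1, and without these arrays the median was still 0.25.

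Neither treatment was tested against the untreated level here, so positions above or below 0 are a description. The list's median was 0.23, 0.08, 0.15 and −0.10 on the BK_APP arrays and −0.32, −0.18, −0.05 and −0.36 on the HOE_APP arrays. It was thus below 0 on all HOE_APP arrays and above 0 on 3 of the 4 BK_APP arrays. Ifit1, which binds foreign RNA, lay at 0.43, 0.25, 0.20 and 0.14 in BK_APP and at −0.59, −0.25, −0.40 and −0.69 in HOE_APP. Its values stood on opposite sides of 0 in the 2 groups, with a mean difference of 0.74 (SE 0.09, interval 0.54 to 0.94, adjusted p = 0.137). Isg15, a ubiquitin-like modifier, had the same arrangement with BK_APP at 0.44, 0.00, 0.29 and 0.02 and HOE_APP at −0.59, −0.44, −0.06 and −0.71, and a mean difference of 0.64 (interval 0.39 to 0.88, adjusted p = 0.283), although a further Isg15 probe gave 0.34. Rtp4 differed by 0.73 (SE 0.13), Rsad2, the antiviral viperin, by 0.47 (SE 0.06) and Irgm2, an immunity-related GTPase, by 0.45 (SE 0.07), each in 4 of 4 pairs. Ifit3b differed by 0.57 (0.33 for a further probe), but it has a close paralog in Ifit3, so its signal is uncertain.

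With the sign of HOE_APP turned, the median of the interferon-induced list became −0.14 and 1 of its members had an unadjusted p below 0.05. With the log ratios of the scanner software it was 0.47 instead of 0.28.

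Promoters of 3 named interferon-induced genes are shown. They have the largest differences among those that hold the letters of the interferon-stimulated response element, a site through which interferon raises transcription. The motif searched was GAAANNGAAA on either strand (TTTCNNTTTC on the other), in windows from 250 bases before to 50 bases after the start of each gene (RefSeq, build GRCm38.p6, which is not the build of the array design). Of the 41 expressed interferon-induced genes 31 had a window, and 18 of these (58.1%) held the motif, compared with 3.71% of the 11384 expressed genes with a window and 3.99% of all 27025 genes in the table. The windows of Ifit1 (chr19:34640639-34640938, plus strand), Gbp5 (chr3:142496684-142496983, plus strand) and Isg15 (chr4:156200769-156201068, minus strand) are printed 5′ to 3′ with the matches in capitals.
Ifit1: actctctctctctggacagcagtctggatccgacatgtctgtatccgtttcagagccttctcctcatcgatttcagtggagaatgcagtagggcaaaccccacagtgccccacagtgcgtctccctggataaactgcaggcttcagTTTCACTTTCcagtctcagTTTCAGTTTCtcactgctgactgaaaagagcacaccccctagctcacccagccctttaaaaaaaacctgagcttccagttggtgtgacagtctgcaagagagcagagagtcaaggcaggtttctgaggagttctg
Gbp5: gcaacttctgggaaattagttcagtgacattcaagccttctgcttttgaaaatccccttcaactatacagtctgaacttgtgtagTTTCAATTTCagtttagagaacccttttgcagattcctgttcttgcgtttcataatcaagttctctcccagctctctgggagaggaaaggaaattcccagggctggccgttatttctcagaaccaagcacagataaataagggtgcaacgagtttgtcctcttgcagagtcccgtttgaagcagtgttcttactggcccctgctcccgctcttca
Isg15: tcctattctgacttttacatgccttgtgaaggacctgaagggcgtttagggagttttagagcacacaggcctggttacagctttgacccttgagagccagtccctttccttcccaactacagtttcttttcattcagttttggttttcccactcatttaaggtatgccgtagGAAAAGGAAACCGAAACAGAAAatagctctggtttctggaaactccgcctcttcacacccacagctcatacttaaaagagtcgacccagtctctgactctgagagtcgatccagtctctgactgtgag
Ifit1 holds 2 separate matches, Gbp5 holds 1, and Isg15 holds 3 that overlap one another. Oasl2, which is among the 10 genes led by C3, has a window without these letters. The matches describe the sequence only, and binding was not measured on these arrays.

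Inflammatory and NF-kB genes encode chemokines, adhesion molecules and feedback regulators of innate immunity. Of 38 genes listed, 28 were expressed, 27 had a difference above 0 (47.8% of all genes did) and 23 had an unadjusted p below 0.05, all of them higher in BK_APP, where 5.1% of all genes were. The median difference was 0.36 and the pair medians were 0.58, 0.27, 0.34 and 0.27. Ccl5, a chemokine that attracts T cells and monocytes, lay at 0.15, −0.04, 0.35 and −0.09 on the BK_APP arrays and at −0.89, −0.65, −0.03 and −0.65 on the HOE_APP arrays. On BK_APP arrays it lay around the untreated level, whereas it was well below it on 3 HOE_APP arrays and near it on the array of replicate 3. Its mean difference was 0.65 (SE 0.10, interval 0.42 to 0.87, 1.57-fold, adjusted p = 0.251). For Tlr2, the receptor for bacterial lipoproteins, BK_APP lay at 0.18, 0.21, 0.44 and 0.11 and HOE_APP at −0.42, −0.25, 0.05 and −0.34, so that all BK_APP values were higher than all HOE_APP values. The paired differences of 0.60, 0.46, 0.40 and 0.45 gave a mean of 0.48 (SE 0.06, interval 0.34 to 0.61, adjusted p = 0.137).

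Cxcl10, a chemokine induced by interferon, Bcl3, a cofactor of NF-kB, and Vcam1, an adhesion molecule, differed by 0.58 (SE 0.11), 0.63 (SE 0.10) and 0.43 (SE 0.07), each in 4 of 4 pairs. For Vcam1 all BK_APP values were above 0 (0.23, 0.24, 0.39 and 0.01) and all HOE_APP values below it (−0.35, −0.14, −0.12 and −0.24), while a further Vcam1 probe gave a difference of 0.25. Ccl3 and Ccl12, chemokines for monocytes, differed by 0.48 (SE 0.10) and 0.36 (SE 0.08), and Tnf by 0.20 (SE 0.08) with 3 of 4 pairs above 0. Nos2, the inducible nitric oxide synthase, was the member below 0, at −0.19 (interval −0.39 to 0.02). Il1b, Il1a, Il6, Cxcl1, Cxcl2, Cxcl9, Icam1 and Cd40 were among the 10 members that were not expressed here. With the sign of HOE_APP turned the median was 0.08, and 3 members had an unadjusted p below 0.05.

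Complement genes gave a median of 0.21 over 14 expressed members, of which 8 had an unadjusted p below 0.05, all higher in BK_APP (5.1% of all genes). There were 5 such members without replicate 2 and 5 without replicate 4, 4 without the pairing, and 0 with the sign of HOE_APP turned, where the median was 0.01. Over the pairs with treated RNA in Cy5 alone the median was 0.11, and in Cy3 alone 0.12. Besides C3, these included the proteases C1ra, with a difference of 0.44 (SE 0.08, 0.26 for a further probe), and C1s1, with 0.25 (SE 0.07), and the recognition subunit C1qa, with 0.26 (SE 0.09). Cd55, an inhibitor of complement activation, gave −0.27 (interval −0.60 to 0.06), the lowest value of the list. The genes of MHC class I antigen presentation, 14 of 14 expressed, were all above 0, with a median of 0.26, 11 members above 0 in all 4 pairs (9.37% of all genes) and 10 higher at an unadjusted p below 0.05 (5.1% of all genes; 7 or 6 without the pairing). The median was 0.39 over the Cy5 pairs and 0.15 over the Cy3 pairs. Psmb9, a subunit of the immunoproteasome, differed by 0.46 (SE 0.06), the light chain B2m by 0.36 (SE 0.06), the heavy chain H2-K1 by 0.39 (SE 0.07, 0.27 for a further probe) and the peptide transporter subunit Tap2 by 0.36 (SE 0.07). Class I heavy chains are similar in sequence, and their probes may share signal. This list had a median of −0.02 with the sign of HOE_APP turned.

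Most microglial genes were also above 0. Of 40 genes listed 31 were expressed, 30 were above 0, and 18 had an unadjusted p below 0.05, all of them higher in BK_APP (5.1% of all genes). The median was 0.20, with pair medians of 0.39, 0.19, 0.10 and 0.11, so that replicate 1 was again the highest. Without replicate 1 there were 11 calls, with the treated RNA in Cy3 alone 6 (median 0.11, against 0.32 in Cy5), and without the pairing 13 or 10 (8 or 12 arrays). Aif1, which encodes the calcium-binding protein Iba-1, lay at 0.31, 0.19, 0.42 and −0.02 in BK_APP and at −0.17, −0.07, 0.11 and −0.20 in HOE_APP. The ranges of the 2 groups overlapped by the array of replicate 4 in BK_APP, but each pair was above 0 and the mean difference was 0.31 (SE 0.06, interval 0.16 to 0.45, adjusted p = 0.411). Cx3cr1, the fractalkine receptor, differed by 0.35 (SE 0.09), the macrophage receptor Adgre1 by 0.37 (SE 0.09), the protease Ctss by 0.34 (SE 0.07), the phosphatase Ptpn6 by 0.31 (SE 0.05) and the receptor Csf1r by 0.13 (SE 0.05), each in 4 of 4 pairs. Tmem119 and Trem2 gave 0.06 (interval −0.23 to 0.34) and 0.23 (interval −0.05 to 0.50). The mean log2 intensity of the 31 genes in the treated channel ranged from 8.82 to 9.01 in BK_APP and from 8.53 to 8.87 in HOE_APP, and these ranges overlapped. P2ry12, Cd68 and Spi1 were among the 9 members not expressed. Of 12 genes of peripheral myeloid cells only Cd44, Camp and Elane were expressed, with differences of 0.21 (0.06 for a further Cd44 probe), 0.14 (−0.01 for a further Camp probe) and −0.005, while S100a8, S100a9, Ly6c2 and Ccr2 were not. The part of the microglial genes in the interferon and chemokine differences was not tested. With the sign of HOE_APP turned the median of the microglial list was 0.01.

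**Figure D3:**
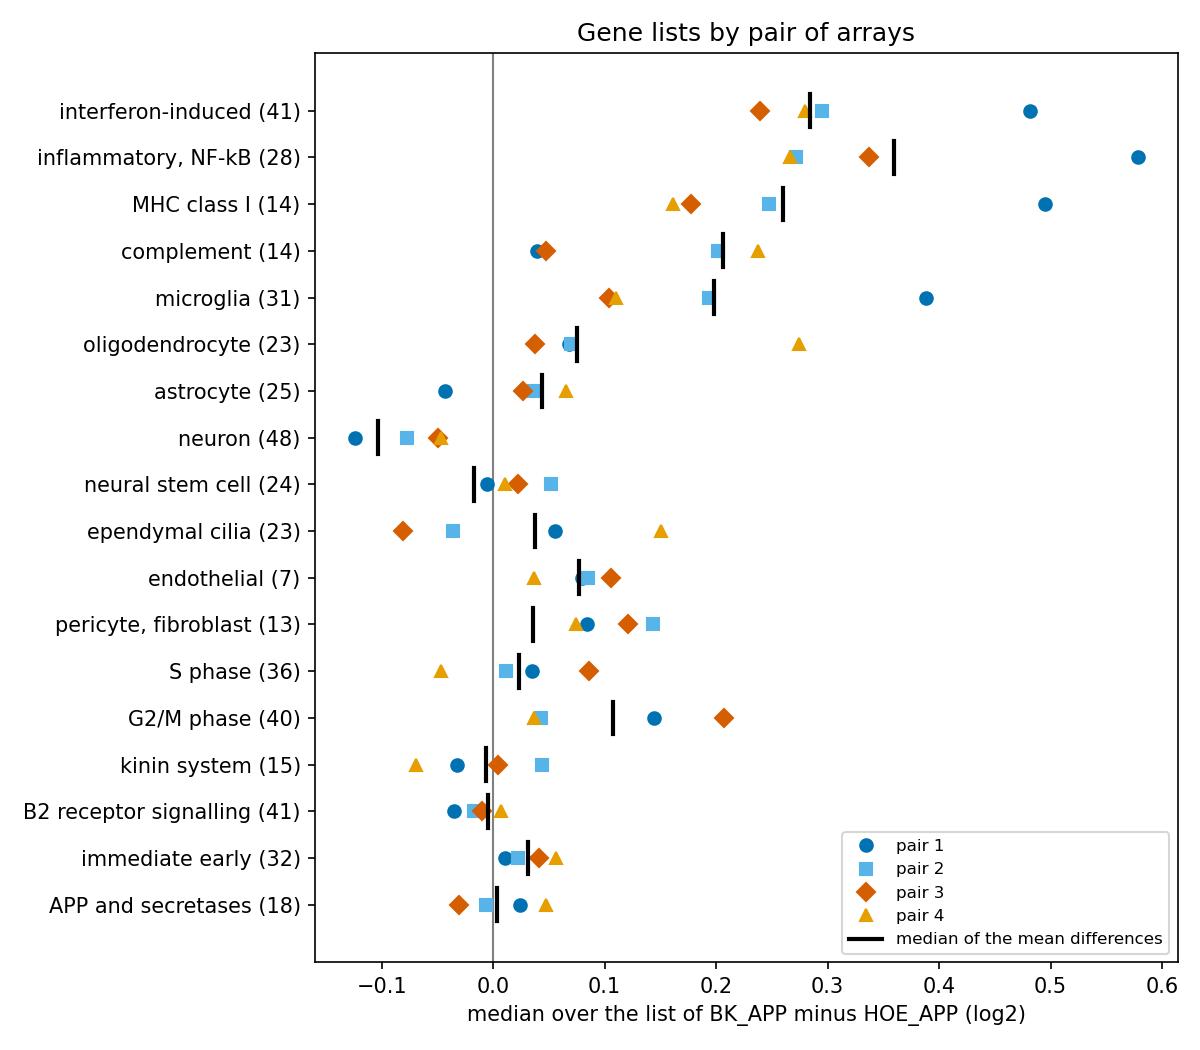
Median over each gene list of the difference BK_APP minus HOE_APP (x axis, log2) in each of the 4 pairs of arrays, with a bar at the median of the members' mean differences and the number of expressed members in brackets. The immune lists are above 0 in all 4 pairs, with pair 1 the highest for 4 of the 5, and the neuron list is below 0 in all 4 pairs.

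The targets of the compounds were at the limit of the arrays. Bdkrb2 and Bdkrb1, which encode the B2 and B1 receptors, and the kininogens Kng1 and Kng2 were well above background in 0 of 8 treated and 0 of 8 untreated channels, so no difference can be given for them. This bounds the signal of these probes and does not show that the receptor was missing. Of 26 genes of the kinin system, 15 were expressed. Their median difference was −0.006 (pair medians −0.03, 0.04, 0.004 and −0.07), 7 were above and 8 below 0, and 2 had an unadjusted p below 0.05 (8.71% of all genes). Prcp, a carboxypeptidase that removes the last residue of kinins without their terminal arginine and of angiotensins, gave 0.22, 0.14, 0.22 and 0.12, a mean of 0.18 (SE 0.05, interval 0.05 to 0.30, adjusted p = 0.544), although a further probe of Prcp gave −0.15. Thop1, an endopeptidase that cleaves BK, gave −0.09, −0.09, −0.25 and −0.10, a mean of −0.13 (SE 0.06, interval −0.26 to −0.002, adjusted p = 0.621). Without the pairing, and without replicate 1, 2 or 3, 0 kinin genes were lower at an unadjusted p below 0.05. For other BK-degrading enzymes the intervals were wide compared with the values. Ace gave −0.02 (interval −0.16 to 0.13), Ece1 −0.08 (−0.29 to 0.13), Cpm −0.06 (−0.21 to 0.10) and Prep 0.01 (−0.15 to 0.18). Mme, which encodes neprilysin, was well above background on 1 of 4 BK_APP and 3 of 4 HOE_APP arrays and thus passed the filter only through HOE_APP, so its value of −0.09 (−0.23 to 0.05) rests on dim signals. Serping1, the inhibitor of C1 and kallikrein, had the largest value with 0.31 (interval −0.01 to 0.63), but its pairs of −0.03, 0.46, −0.03 and 0.85 were split. A further Serping1 probe gave 0.30, with an unadjusted p below 0.05.

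**Figure D4:**
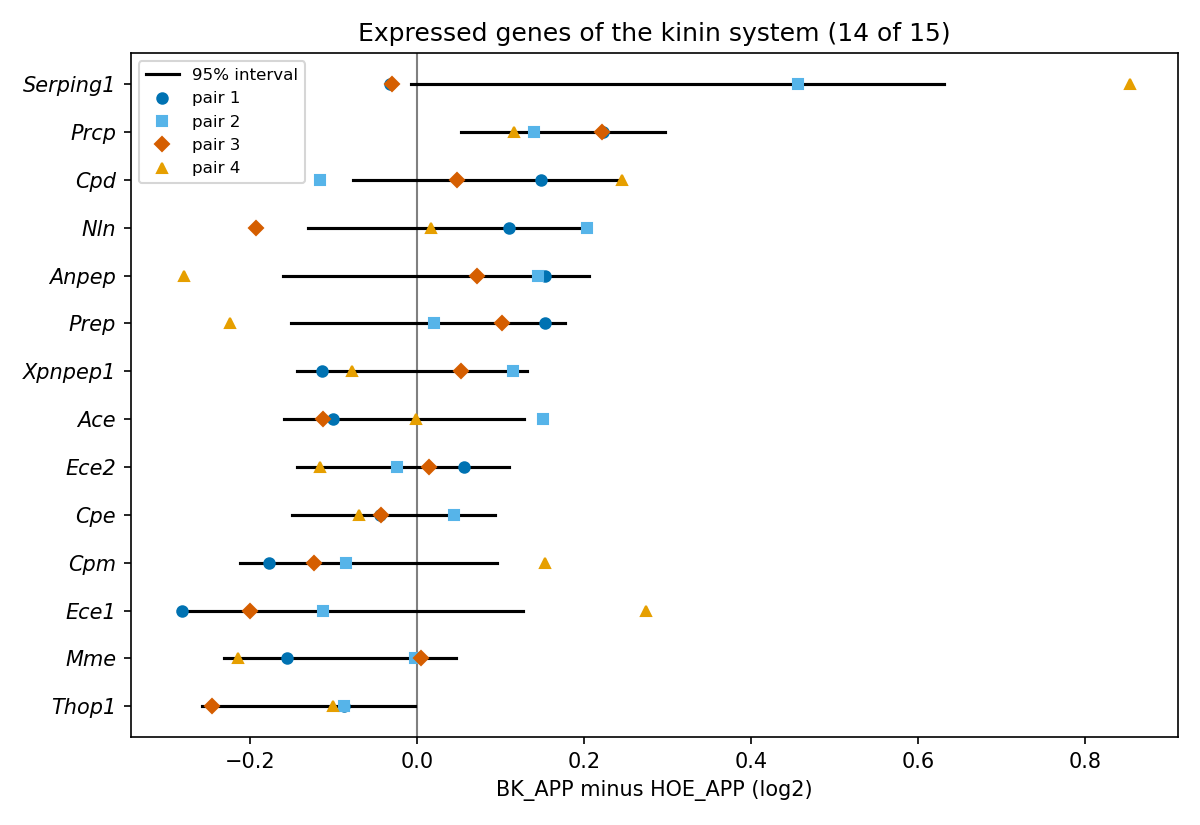
Difference BK_APP minus HOE_APP (x axis, log2) of 14 of the 15 expressed genes of the kinin system in each of 4 pairs, with the 95% interval of the mean. The intervals of Prcp (0.05 to 0.30) and Thop1 (−0.26 to −0.002) leave out 0, and the other 12 shown include it.

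Genes downstream of the receptor gave little difference. Of 45 genes of B2 receptor signalling 41 were expressed, with a median of −0.004 and 20 members above 0. An unadjusted p below 0.05 was found for 3 of them (7.32%), beside 8.71% of all genes, and 2 of the 3 were enzymes with a positive difference. The 3 became 1 without replicate 1 and without the pairing, and 0 without replicate 4, where the median was −0.03. Pla2g4a, the cytosolic phospholipase that releases arachidonic acid, differed by 0.28 (SE 0.09) and Plcb3, a phospholipase C, by 0.16 (SE 0.07). Itpr1, the receptor that releases stored calcium, was below 0 in 4 of 4 pairs with a mean of −0.14 (interval −0.28 to 0.01), and Ptgs2 was not expressed. Immediate early genes, which respond within an hour to receptor activation, were measured on day 7, after the last dose on day 6. Their median was 0.03 over 32 expressed members (−0.01 with median centring, which moved the median of all genes from −0.004 to −0.04), with 7 higher (5.1% of all genes) and 2 lower (3.61% of all genes) in BK_APP at an unadjusted p below 0.05. The 7 became 3 without replicate 3 and 5 or 3 without the pairing (8 or 12 arrays), and the 2 became 1 without replicate 1, 3 or 4 and without the pairing. Ier3 differed by 0.27 (SE 0.05), Fos by 0.15 (SE 0.05), and Ccn2 and Ccn1, matrix-associated growth regulators, by 0.29 (SE 0.10) and 0.28 (SE 0.09), whereas Egr1 gave 0.06 (interval −0.07 to 0.19). The 2 lower members were Fosl1 and Fosb, partners of Jun in the AP-1 complex. Fosl1 had the largest difference of the list in size, −0.48 (SE 0.16), with pairs of 0.05, −1.19, −0.38 and −0.40 that did not all have one sign, and it was well above background on 2 of 4 BK_APP arrays. Fosb gave −0.17 (SE 0.06) with 3 of 4 pairs below 0.

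Neuronal genes were on the other side. Of 48 genes listed, all expressed, 44 were below 0, where 52.1% of all genes were, 19 were below 0 in all 4 pairs (9.6% of all genes), and 11 had an unadjusted p below 0.05, all lower in BK_APP (3.61% of all genes; 7 without replicate 1). The median was −0.10, and the pair medians were −0.12, −0.08, −0.05 and −0.05. The sizes were small compared with those of the immune genes. Reln, a secreted protein that guides neuronal migration, lay at −0.10, 0.01, 0.01 and −0.21 in BK_APP and at 0.14, 0.42, 0.22 and −0.04 in HOE_APP. The 2 groups overlapped, but all 4 pairs were below 0, with a mean difference of −0.26 (SE 0.06, interval −0.39 to −0.12, adjusted p = 0.464). Stmn2, a microtubule regulator of growth cones, Nefl, the light neurofilament, and Slc17a7, a vesicular glutamate transporter, gave −0.20, −0.20 and −0.23, each below 0 in 4 of 4 pairs. With the sign of HOE_APP turned the list's median was −0.07 and 2 members had an unadjusted p below 0.05.

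Other cell types gave smaller shifts. Oligodendrocyte genes had a median of 0.07 over 23 expressed members, 20 of them above 0 (47.8% of all genes), and 7 had an unadjusted p below 0.05, all higher in BK_APP (5.1% of all genes). With median centring 13 were above 0, and without the pairing 6 or 2 had such a p (8 or 12 arrays). The median was 0.13 without replicate 3 and 0.05 without replicate 4, and −0.11 with the sign of HOE_APP turned. The myelin genes Mal, with 0.36 (SE 0.06), and Cldn11, with 0.33 (SE 0.07), led this list, and for Mal it was HOE_APP that lay lower (−0.64, −0.29, −0.40 and −0.51) while BK_APP was nearer to 0 (−0.43, 0.01, 0.09 and −0.07). Astrocyte genes had a median of 0.04, with Vim, an intermediate filament, at 0.25 (SE 0.07) and the water channel Aqp4 at 0.19 (SE 0.07), against Ndrg2 at −0.14 (SE 0.05). The astrocyte median was 0.01 without replicate 4, −0.004 with median centring and −0.14 with HOE_APP turned. Neural stem cell genes lay at −0.02 (0.01 without replicate 4) with 1 of 24 members, Id1, at an unadjusted p below 0.05, beside 8.71% of all genes. Ependymal cilia genes lay at 0.04 with 0 of 23, but at −0.04 with 2 lower members without replicate 4 and at −0.01 with median centring. Over 7 expressed endothelial genes the median was 0.08 (0.12 without replicate 2, 0.03 over the Cy5 pairs, 0.20 with the scanner software's log ratios and 0.38 over 5 of them with the authors' log2 ratios), and 2 of them (1 without replicate 1, 3 or 4), among them Flt1 with 0.23 (SE 0.06), were higher at an unadjusted p below 0.05, as were 5.1% of all genes. Over 13 pericyte and fibroblast genes it was 0.04, with 4 higher and 1 lower (5.1% and 3.61% of all genes), but it was between 0.06 and 0.12 when a replicate was left out (0.12 without replicate 4) and was 0.22 with the scanner software's log ratios, and Col1a2, a chain of collagen I, differed by 0.33 (SE 0.07).

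**Figure D5:**
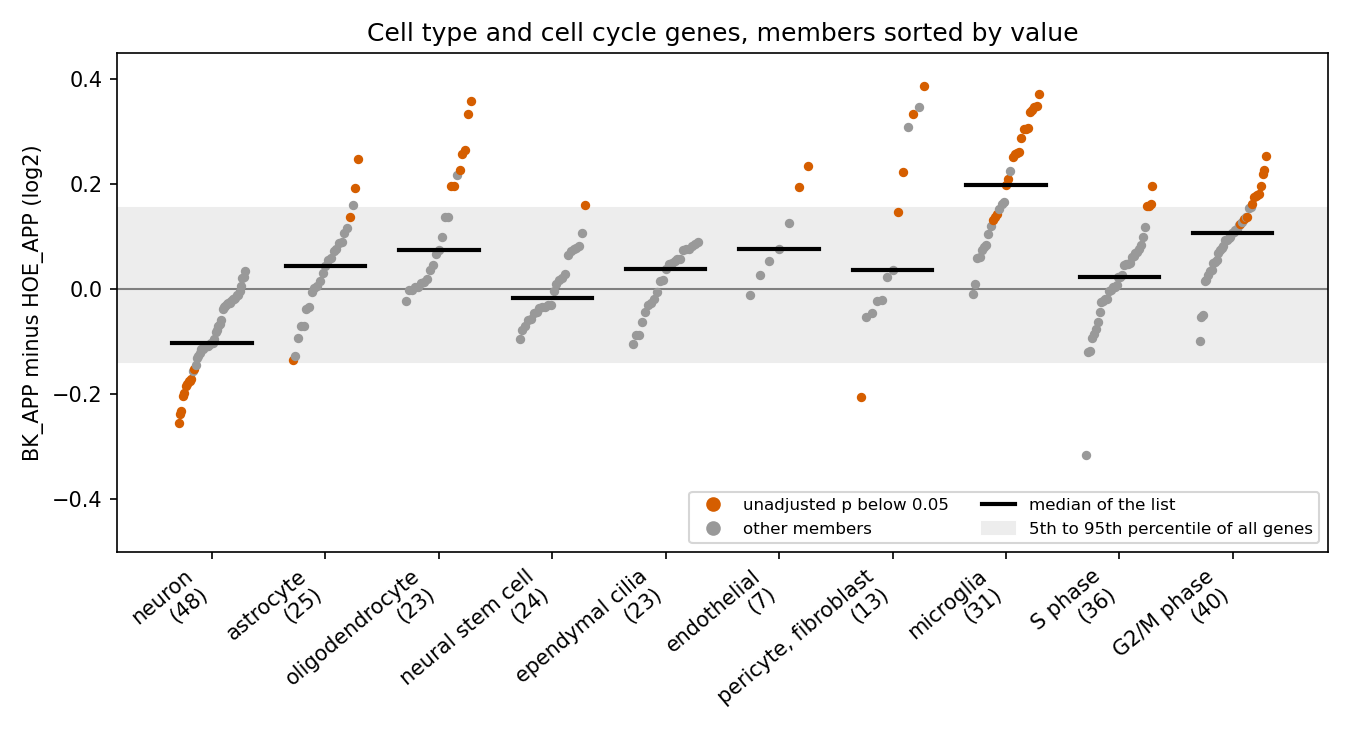
Difference BK_APP minus HOE_APP (y axis, log2) of every expressed member of 10 cell type and cell cycle lists, sorted within each list, with a bar at the list's median and a band for the 5th to 95th percentile of all genes (−0.14 to 0.16). In the direction used here, the median of the microglial list, 0.20, is the highest of the 10 and that of the neuronal list, −0.10, the lowest, while single members of other lists lie as high or lower. Turning the sign of HOE_APP changes both ranks. The medians are then 0.01 for microglial, 0.24 for G2 and M phase, −0.07 for neuronal and −0.14 for astrocyte genes.

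Among genes below 0 in all 4 pairs with an unadjusted p below 0.05, the 10 lowest were L1cam, Mpp2, Cyp2d22, 9430015G10Rik, Thap2, Zar1, Fbf1, Atat1, Apoc3 and Zfp366, from −0.56 to −0.32. With the sign of HOE_APP turned, 2 of them changed sign, Cyp2d22 (0.41) and Thap2 (0.11). The others then lay between −0.32 for Zfp366 and −0.05 for Zar1, with L1cam at −0.15. In several of them 1 pair carried most of the difference. L1cam, a neuronal adhesion molecule, lay at −0.03, −1.13, 0.02 and −0.30 in BK_APP and at 0.14, 0.19, 0.33 and 0.16 in HOE_APP. The BK_APP array of replicate 2 stood apart from the other BK_APP arrays, and the mean of −0.56 had an interval from −0.94 to −0.18 (adjusted p = 0.527). Mpp2, a scaffold protein of synapses, gave −0.01, −0.97, −0.17 and −1.01 over the pairs, and Atat1, the acetyltransferase of alpha-tubulin, −0.21, −0.14, −0.26 and −0.68. Cyp2d22 was well above background on 0 of 4 BK_APP and 3 of 4 HOE_APP arrays, so that its level with BK is only bounded and its difference is not exact. It passed the filter on expression only through HOE_APP, the group where it is high, and pair 3 with −1.34 carried most of its mean. Its paired difference was −0.46 (0.73-fold), and its log2 ratios in HOE_APP were 0.27, 0.44, 1.09 and −0.06. The treated channels alone gave a 1.55-fold higher level in HOE_APP with the BK_APP arrays set at the limit of detection. This is a larger change than the paired one, so it is not a lower bound. Apoc3 was well above background on 1 BK_APP and 3 HOE_APP arrays, and Zar1 and Zfp366 on 2 and 3, so that their values rest in part on dim signals. For Atat1 further probes gave −0.04 and −0.07, and for 9430015G10Rik a further probe gave 0.01.

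Cell cycle genes of the G2 and M phases lay slightly above 0. Of 40 expressed members 37 were above 0 (47.8% of all genes), 14 were above 0 in all 4 pairs (9.37% of all genes), and 12 had an unadjusted p below 0.05, all higher in BK_APP (5.1% of all genes). The median was 0.11, but the pair medians of 0.14, 0.04, 0.21 and 0.04 were uneven. The 12 calls became 5 without replicate 1, 3 without replicate 3, 4 with median centring, and 4 or 0 without the pairing (8 or 12 arrays). Turning the sign of HOE_APP gave a median of 0.24. The list's median was above the untreated level on all arrays of both groups, at 0.22, 0.07, 0.33 and 0.08 in BK_APP and 0.09, 0.03, 0.11 and 0.05 in HOE_APP. Ccnb1, the cyclin that starts mitosis, lay at 0.34, 0.11, 0.38 and 0.33 in BK_APP and at 0.06, −0.11, 0.05 and 0.14 in HOE_APP, a difference of 0.25 (SE 0.05, interval 0.13 to 0.38, adjusted p = 0.411), although further probes of Ccnb1 gave 0.002 and −0.05. Nusap1, Nuf2 and Anln, which serve the spindle and cytokinesis, differed by 0.22, 0.18 and 0.20. S phase genes had a median of 0.02 (0.17 with HOE_APP turned, −0.02 with median centring, and 0.04, 0.01 and 0.05 without replicate 2, 3 and 4). Of 36 members 4 had an unadjusted p below 0.05, all higher where 5.1% of all genes were, among them the replication factors Mcm3 and Mcm4 with 0.16 each. The 4 became 2 without replicate 1, 1 higher and 1 lower without replicate 3, and 2 higher and 1 lower without replicate 4. Without the pairing there were 2 or 1 (8 or 12 arrays).

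In the direction used here, the medians of the remaining lists lay between −0.03 and 0.05. At an unadjusted p below 0.05, 5.1% of all genes were higher and 3.61% lower, which is the background of the counts that follow. Genes of APP and its secretases had a median of 0.003 over 18 members, 2 with an unadjusted p below 0.05 that were higher and 1 that was lower. App itself gave 0.001 (interval −0.12 to 0.13) and Bace1, the beta-secretase, 0.01 (interval −0.12 to 0.13), while Sorl1, a sorting receptor of APP, gave 0.21 (SE 0.07) and Apbb1, an adaptor of its cytoplasmic tail, −0.26 (SE 0.10), of which 1 pair with −0.70 made up the largest share. For cholesterol synthesis the median was −0.03 (0 higher and 2 lower of 28), for the unfolded protein response 0.01 (2 and 1 of 29), for antioxidant targets of NRF2 0.03 (0 and 1 of 21), for glycolysis and hypoxia 0.04 (4 and 0 of 30), for heat shock −0.01 (1 and 0 of 14) and for the extracellular matrix 0.05 (8 and 2 of 35). When HOE_APP was turned, glycolysis and hypoxia had a median of −0.15 with 4 members lower at an unadjusted p below 0.05, cholesterol synthesis 0.13 with 24 of 28 members above 0 and 0 called, and APP and its secretases −0.08, against 0.005 over all genes. The glycolysis count of 4 ranged from 2 to 8 when a replicate was left out (8 without replicate 2), and the 8 higher matrix genes became 5 or 3 without the pairing. For glycolysis 1 gene was left without the pairing, and the median was −0.01 with median centring. The Cy5 pairs alone gave a glycolysis median of −0.03 with 0 called, and the Cy3 pairs 0.11 with 6 higher. Without replicate 4 the cholesterol median was 0.02, and without replicate 3 those of glycolysis and the extracellular matrix were 0.01 and 0.0002. The 2 lower cholesterol genes became 0 without replicate 4 and without the pairing. The cholesterol median was 0.03 over the Cy5 pairs and −0.11 over the Cy3 pairs. The half-width of the 95% interval of a gene had a median of 0.14, so that differences smaller than this could not be seen for a typical gene.

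Of 4 lists taken from the study, those with opposite behavior, lower in HOE_APP or higher in BK_APP were picked from these arrays and are not independent evidence of their direction, so their values are given as a description. The 5 genes with opposite behavior under the 2 treatments (Cx3cr1, Gbp5, Ifit1, Isg15 and Tlr2) had a median difference of 0.64, and each was above 0 in 4 of 4 pairs. The 8 genes that were measured by RT-PCR, which were selected from earlier work on such neurospheres (C3, Ccl12, Ccl3, Ccl5, Cx3cr1, Tlr2, Tnf and Aif1) had a median of 0.42, with 7 of them above 0 in all pairs. Ccl3, Ccl5, Cx3cr1, Tlr2 and Tnf are also on lists picked from these arrays, so this list is not independent evidence either. Over 17 expressed genes picked as lower in HOE_APP the median was 0.47, and over 24 picked as higher in BK_APP it was 0.36. With the sign of HOE_APP turned, the median was 0.02 for the RT-PCR genes and 0.05 for those picked as higher in BK_APP. It was then −0.065 for the genes with opposite behavior and −0.14 for those picked as lower in HOE_APP. Across all named genes, 26 (0.182%) were above 0 on all 4 BK_APP arrays and below 0 on all 4 HOE_APP arrays. Of these, 23 had an unadjusted p below 0.05 in the paired limma test, and 21 genes with such a p had the reverse arrangement. Among probes these counts were 33 and 40, so neither direction stood out.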

How the data were processed

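RNA of BK_APP, HOE_APP and APP_WT neurospheres was measured on 8 2-color Agilent arrays with swapped dyes (median spot signals of 63 to 111 scanner units). The authors deposited scanner output with the median spot and background intensity of each channel, not normalized. Feature Extraction was at version 11.0.1.1 by the file headers (the methods state another). The log10 ratios deposited beside them come from processed intensities, and the authors deposited a table of log2 ratios that follows these log ratios with the direction used here. Which normalization that table had is not given in the sources used here.

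The members, gene lists and named genes were chosen with earlier results of these data known. In limma 3.58.1 (R 4.3.3) the background was corrected by normexp (offset 50), ratios were normalized by loess (span 0.3), control spots (3671 of 62976) and uneven spots got a weight of 0, and spots of a probe were averaged. Expressed probes had to exceed background clearly for 1 condition on 3 or more of the 4 arrays of a comparison. Probes were named by RefSeq accession (27509 of 29150), and a gene was represented by its brightest expressed probe. Of the expressed probes, 341 had a missing value, which left their fit with fewer pairs. Paired differences were fitted with an intercept (3 residual and 5.22 prior degrees of freedom), and two-sided p-values were adjusted after Benjamini and Hochberg over 29078 probes. The fit was tested on simulated data. An offset dampens the differences of dim probes, and the number of arrays limits the precision.

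Same-numbered arrays deviated together: within a dye orientation, the deviations of BK_APP and HOE_APP from their means correlated with r = 0.424 (replicates 1 and 2) and 0.432 (replicates 3 and 4) across probes, which are not independent. The treated channels gave 0.388 and 0.318 and the untreated channels 0.519 and 0.527. The labels do not say what a number shares. Named were the 10 genes with the largest difference in each direction among those with 1 sign in all 4 pairs and an unadjusted p below 0.05, the expressed kinin genes, the genes of the study with opposite behavior or RT-PCR, and up to 4 genes with the smallest p of each other list. Others are said to be chosen later or are list extremes, defining members or textbook genes of their list. A few genes that these rules name are counted in their lists but not reported here. Alternatives were other normalizations, filters, fits without the pairing, single dye orientations, the sign of HOE_APP turned, leaving out each replicate, and SAM with rank products, which the methods name.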

Additional observations from a re-analysis of the deposited data

Results flagged for a closer look

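Of 157 sets of 4 paired differences checked (128 named genes and 29 list medians), 15 had 1 pair far from the other 3, and chance alone flags about 1 set in 20. Among the genes lower in BK_APP, pair 3 gave −1.34 for Cyp2d22 (others −0.18 to −0.15, BK_APP not well above background on any array) and −1.35 for Thap2 (others −0.22 to −0.04), and pair 2 gave −1.24 for 9430015G10Rik (others −0.25 to −0.10) and −0.31 for Stmn2. Pair 4 gave −0.70 for Apbb1 and 0.49 for Adamts1. Pair 3 also stood apart for Thop1 (−0.25), Cd44 (0.35), Psmb9 (0.31), Ugt8a (0.084) and Fth1 (0.21), and pair 1 for Ccl12 (0.64) and Vwf (0.46). Among the lists, pair 4 stood apart for oligodendrocyte genes (0.27, others 0.04 to 0.07) and heat shock genes (−0.066, others 0.01 to 0.02).

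For 5 named genes all 4 BK_APP arrays lay above the untreated level and all 4 HOE_APP arrays below it, with mean differences of 0.74 for Ifit1, 0.73 for Rtp4, 0.65 for Gbp5, 0.64 for Isg15 and 0.43 for Vcam1. The same held for the medians of 2 lists picked by the study on these arrays, the genes with opposite behavior (0.64) and those lower in HOE_APP (0.47). None of these differences passed the adjusted threshold in the paired limma test, and those of the lists were not tested. The lowest BK_APP value was 0.14 for Ifit1 but close to 0 for Gbp5 (0.001), Isg15 (0.0009), Rtp4 (0.006) and Vcam1 (0.01). On the BK_APP array of replicate 4 the medians of these lists were 0.02 (opposite behavior) and 0.003 (lower in HOE_APP).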

How the results depend on the processing

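The number of probes with an adjusted p below 0.05 was 0 in the paired limma fit and in each leave-one-out fit (0 to 0). It was 46 with median centring, 1 in the treated channels alone, 6 among probes above background in both channels of all arrays and 54 with a variance that followed the intensity (added after seeing the data), and SAM with rank products gave 1178 unadjusted. Without pairing by replicate number (no replicate block), 946 probes (8 arrays) or 736 (12 arrays) had an unadjusted p below 0.05, against 2302 with the pairing, and 0 passed the adjusted threshold. The treated channels gave 5184 and the turned sign of HOE_APP 571. Leaving out a replicate gave 1689 to 2366. The spread over probes (SD) was 0.15 to 0.18 in the 4 pairs, but 0.28 to 0.38 with the sign turned, where a dye effect does not cancel within a pair. The part of this spread in the count of 571 was not tested. Probes with one sign in all 4 pairs numbered 4847, but 8180 in the treated channels, 7882 without the expression filter and 2432 with the sign turned. The interferon-induced median of 0.28 was 0.47 with the scanner software's log ratios, 0.48 with the authors' log2 ratios and −0.14 with the sign turned (leave-one-out 0.25 to 0.35). The inflammatory median of 0.36 was 0.51 with both and 0.077 with the sign turned (leave-one-out 0.30 to 0.39). The microglial median of 0.20 was 0.31 with both and 0.013 with the sign turned (leave-one-out 0.14 to 0.25).

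With the sign of HOE_APP turned, medians also reversed for peripheral myeloid (−0.14), MHC class I (−0.016), oligodendrocyte (−0.11), endothelial (−0.034), pericyte and fibroblast (−0.031), astrocyte (−0.14), ependymal cilia (−0.011), glycolysis and hypoxia (−0.15), extracellular matrix (−0.038), APP and secretase (−0.080), cholesterol synthesis (0.13), neural stem cell (0.0045), heat shock (0.022) and unfolded protein response genes (−0.00026) and for the study's lists of opposite genes (−0.065) and of genes lower in HOE_APP (−0.14). The peripheral myeloid median was −0.0046 without the expression filter, and with median centring, which moved the median of all genes from −0.0037 to −0.045, that of immediate early genes was −0.0069. Of 128 named genes 74 changed sign when HOE_APP was turned, and 0 to 8 did so under each other alternative. Of the 1243 genes with an unadjusted p below 0.05, 662 to 837 had one in the same direction when a replicate was left out, 484 in the Cy5 pairs alone, 518 in the Cy3 pairs alone and 522 or 406 without the pairing (8 or 12 arrays). The causes of these changes were not tested. Dim probes set a limit, since an offset lowers their differences.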
